A study of Mus musculus with 24 samples.

Results

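The homozygous effect of 2 mutant Setd2 alleles on transcript levels was compared between yolk sacs and embryos of the mouse. All 24 libraries of the series entered the comparison: 4 homozygous (HO) and 8 other libraries from whole embryos, and 4 HO and 8 other libraries from yolk sacs. Of 55421 genes counted, 16456 had enough reads in both tissues to be tested. The tissues came from C57BL/6 mice at embryonic day 9.5. The null line and the catalytic dead (CD) line each gave wild type (WT), heterozygous (HE) and HO libraries, 2 per tissue and genotype. WT and HE libraries were pooled as the comparison group, and each HO library carried 2 copies of the allele of its line. The labels do not say how either allele was made, whether WT and HE were littermates of HO, or whether replicates came from separate animals. Y-linked transcripts were present in only 1 replicate of the HO embryos of the null line and of the HE embryos of the CD line. In yolk sacs the same held for the null line, both in HO and in HE. Replicates of these groups thus did not come from a single animal. For the other groups the source of the replicates was not settled. The p-values therefore describe the spread among these libraries, which in those other groups may be technical. For each gene the HO difference in yolk sacs minus the HO difference in embryos was tested, with each line's own level fitted in each tissue.

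Setd2 encodes the enzyme that adds the third methyl group to lysine 36 of histone H3 (giving H3K36me3) along the bodies of transcribed genes, a mark read by factors that act in splicing, DNA methylation, DNA repair and the silencing of cryptic start sites. Mouse embryos without it die in midgestation with defects of blood vessels in the embryo and in the yolk sac. The yolk sac is built of an outer visceral endoderm, which absorbs and secretes nutrients much as gut and liver do later, and an inner mesoderm that forms vessels and the first, primitive red blood cells. Those red cells enter the embryo once the heart beats.

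Levels are CPM (read counts relative to library size) scaled by TMM, and every HO difference is a log2 fold change against WT and HE pooled, given ± its standard error. "Called" means an adjusted p below 0.05 in the edgeR quasi-likelihood test, and "interaction" means the yolk sac difference minus the embryo difference. Setd2 itself (chromosome 9, 110532597 to 110618633, mm10) was first used to check the labels. In embryos of the null line it stood at 212 and 211 CPM in WT, 154 and 144 in HE and 84.6 and 94.6 in HO. In null yolk sacs it was 82.4 and 85.8 CPM in HO, 116 and 127 in the libraries labelled WT, and 129 and 135 in HE. The libraries labelled WT were thus not above HE there. CD libraries lay between 191 and 230 CPM in both tissues, HO included. Which exons the null allele lacks was not stated in the labels, so reads from the rest of the gene may still be counted. The pooled difference of Setd2 was -0.53 ± 0.14 in embryos and -0.25 ± 0.14 in yolk sacs, and the interaction of 0.28 ± 0.20 was not called (edgeR adjusted p = 0.294). The tissue labels fitted their markers. The summed visceral endoderm markers lay at 15000 to 27100 CPM in yolk sacs and at 3.43 to 335 CPM in embryos. Y-linked transcripts were present in 1 of 4 HO and 5 of 8 other embryo libraries, and in 3 of 4 HO and 2 of 8 other yolk sac libraries, so that sex moved with genotype in opposite ways in the tissues. Of the libraries, 3 stood apart: embryo null HO replicate 2 had globin reads at 0.00937% of counts, embryo CD WT replicate 2 held the 335 CPM of endoderm markers, and yolk sac CD HE replicate 2 held both Xist and Y-linked transcripts.

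The homozygous difference was not the same in the tissues for 5255 genes, 31.9% of those tested. For 2425 of them (14.7%) it was higher in yolk sacs and for 2830 (17.2%) lower. With library totals in place of TMM, 61.0% of the called genes were on the higher side, against 46.1% with TMM, so the balance of the directions rests on the scaling. In embryos 3057 genes rose (18.6%) and 3199 fell (19.4%) in HO. In yolk sacs 2914 rose (17.7%) and 3719 fell (22.6%). Of the 2977 genes called in both tissues, 2116 moved the same way and 861 opposite ways. Genes are not independent of each other, and over all of them the embryo and yolk sac differences had a Pearson r of 0.26 and a Spearman rho of 0.238. The tissues share no libraries. With a term for sex in each tissue 4509 interactions were called, and 5270 without the 3 libraries that stood apart.

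Genes with a called interaction were then sorted by where HO differed. The embryo-only class, called in embryos and not in yolk sacs, held 1708 genes (10.4%), 850 higher and 858 lower in HO. For 1234 of them the 95% interval of the yolk sac difference lay within 0.5 log2 units of 0. The yolk-sac-only class held 2052 genes (12.5%), 895 higher and 1157 lower, and for 1499 of them the embryo interval was as narrow. The opposite class held 861 genes (5.23%), of which 513 rose in embryos and fell in yolk sacs and 348 did the reverse. With the term for sex the opposite class held 651 genes, and without the 3 libraries 903. A further 200 genes moved the same way with the larger difference in embryos, and 218 with the larger difference in yolk sacs. Yolk sac libraries spread more (biological coefficient of variation 0.151 against 0.0965), and the order of the one-tissue classes rests on how that was fitted: with a weight per tissue in limma voom the embryo-only class held 1992 genes and the yolk-sac-only class 1467.

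**Figure D1:**
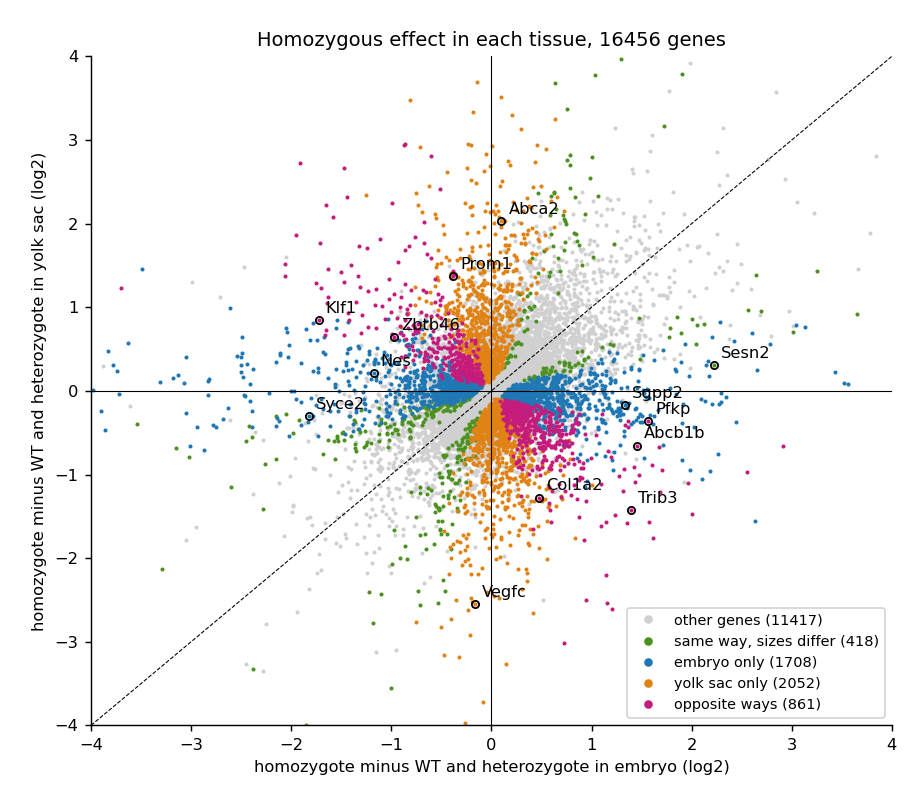
Homozygous difference (log2, HO against WT and HE) of each tested gene in embryos (x axis) and in yolk sacs (y axis), coloured by class, with 19 genes beyond the axes not drawn. The 1708 embryo-only genes lie along the horizontal axis, the 2052 yolk-sac-only genes along the vertical axis, and the 861 opposite genes lie to the upper left and lower right.

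Among genes that changed in embryos only, Sgpp2, a phosphatase of sphingosine-1-phosphate, had the smallest interaction p on the rising side. Embryo HO libraries held 21.9, 18.9, 16.7 and 19.2 CPM (here and below the null replicates come first, then the CD replicates), and the others 6.66 to 9.6 (median 7.34). Yolk sac HO libraries held 43.8, 50.2, 49.8 and 49.2 CPM against 47.1 to 65.9 (median 54). The groups did not overlap in embryos and overlapped in yolk sacs. The difference was 1.33 ± 0.10 in embryos and -0.17 ± 0.10 in yolk sacs (interaction -1.51 ± 0.14, edgeR adjusted p = 5.91e-08). Trim25, a ubiquitin ligase of antiviral signalling, was raised in embryos to 28, 39.6, 25.8 and 31.5 CPM from 11.6 to 18.2 (median 12.8). In yolk sacs its HO libraries held 205, 189, 187 and 216 CPM against 181 to 221 (median 201), a difference of -0.01 ± 0.09, so HO lay inside the range of the others. The other genes named by the same rule were Arap2, a GTPase regulator (embryo difference 1.85 ± 0.13), P4ha2, a collagen prolyl hydroxylase (0.97 ± 0.08), Nup62cl (2.21 ± 0.19) and Slc35f2, a membrane transporter (1.27 ± 0.14). Their yolk sac differences were -0.03 to -0.27.

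Syce2, a part of the synaptonemal complex of meiosis, fell in embryos only. Its embryo HO libraries held 3.42, 4.12, 4.74 and 5.46 CPM against 13.4 to 18.8 (median 15.1), with no overlap (-1.82 ± 0.16). In yolk sacs HO held 14, 13.6, 12.8 and 10.9 CPM against 11 to 17.9 (median 17.1), a difference of -0.30 ± 0.14 that was not called. Tm7sf2, a sterol reductase of cholesterol synthesis, fell in embryos to 4.47, 5.26, 4.04 and 3.63 CPM from 10.8 to 12.4 (median 11.5; -1.41 ± 0.13). Its yolk sac HO libraries, at 6.37, 6.86, 4.58 and 6.29 CPM, lay inside the range of the others, 4.11 to 8.5 (median 6.77; -0.16 ± 0.13). Rab3il1, an exchange factor of Rab GTPases, fell by 1.26 ± 0.12 on the log2 scale in embryos. Zfp820 (-1.27 ± 0.12), the calcium sensor gene Ncald (-1.17 ± 0.16) and the adaptor subunit gene Ap4m1 (-0.87 ± 0.11) were the others.

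In yolk sacs only, Abca2, a lipid transporter, rose. HO libraries held 30.5, 24.5, 22.7 and 31.9 CPM there against 5.46 to 7.76 (median 6.83), a difference of 2.03 ± 0.10. In embryos HO held 22.3, 21.6, 29.5 and 29.9 CPM against 20.6 to 27.4 (median 23.6; 0.10 ± 0.09). HO yolk sacs thus stood near the level of embryos. The kinesin gene Kif5c, which moves cargo in neurons, went from 3.45 to 8.21 CPM (median 4.83) to 14.1, 17.3, 13.7 and 24.1 in yolk sacs (1.69 ± 0.16). In embryos its HO libraries held 46.3, 57.4, 55.6 and 56.7 CPM against 59.6 to 73.8 (median 67.6), a difference of -0.32 ± 0.14 that was not called although the groups did not overlap. Pde4d, a phosphodiesterase of cyclic AMP, rose to 12.4, 13.8, 13.3 and 11.9 CPM from 4.4 to 6.86 (median 5.54; 1.19 ± 0.10). Its embryo HO libraries at 10.4, 9.38, 8.78 and 9.37 CPM overlapped the others at 9.28 to 11.9 (median 10.7). Lonrf2 (4.07 ± 0.25), Fhod3, an actin assembly factor of muscle (1.75 ± 0.12), and Spef1, a microtubule protein of cilia (2.13 ± 0.15), were the others, with embryo differences of 0.33, 0.13 and -0.01.

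Vegfc, the growth factor of lymphatic and some blood vessel endothelium, fell in yolk sacs only. HO yolk sacs held 1.78, 1.7, 1.21 and 1.05 CPM against 6.69 to 10.9 (median 8.33), a difference of -2.55 ± 0.13. Embryo HO libraries held 12.7, 14.7, 15.2 and 12.5 CPM against 14.4 to 16.4 (median 15.5), and the embryo difference of -0.17 ± 0.09 was not called (interaction -2.38 ± 0.15, edgeR adjusted p = 3.6e-10). The groups were far apart in yolk sacs and overlapped in embryos. Cavin2, a coat protein of caveolae in endothelium and muscle, was lowered to 8.92, 8.74, 8.76 and 7.33 CPM from 18.1 to 40.6 (median 28.1) in yolk sacs (-1.75 ± 0.15). In embryos it stood at 6.67, 7.24, 6.83 and 5.31 CPM against 4.22 to 7.3 (median 6.2; 0.09 ± 0.15). The bicarbonate transporter gene Slc4a4 (-1.35 ± 0.10), the carbonic anhydrase gene Car13 (-0.96 ± 0.08), Fkbp11, a folding enzyme of the secretory pathway (-1.29 ± 0.11), and Scly, which recycles selenium (-1.05 ± 0.09), also fell in yolk sacs only. HO and other libraries did not overlap for any of the 24 genes named in these classes in the tissue where the gene was called, which the rule for naming them required within each line.

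**Figure D2:**
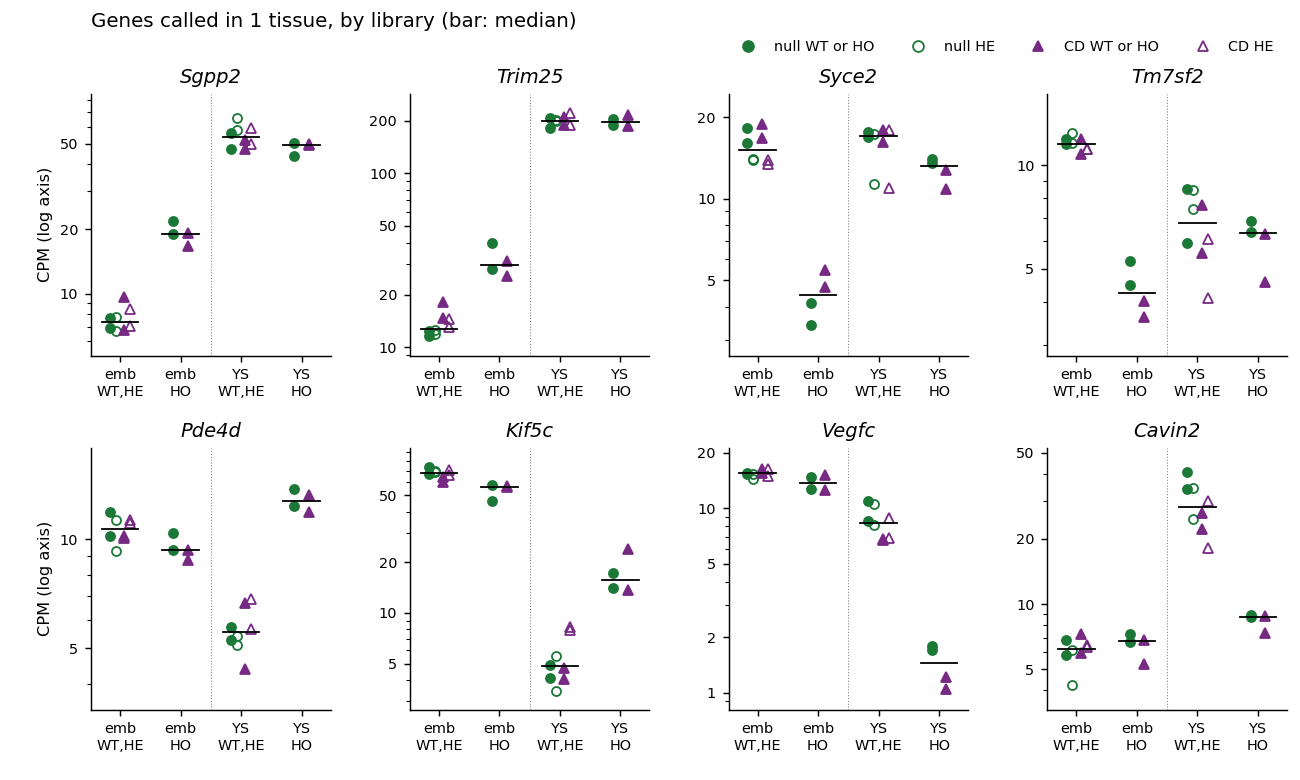
CPM (log axis) of 8 genes called in 1 tissue, with 1 point per library (circles null, triangles CD, open for HE), a bar at the median, and HO beside WT and HE in embryos (emb) and yolk sacs (YS). HO points stand apart from the others in the tissue of the call, as for Vegfc in yolk sacs (1.05 to 1.78 against 6.69 to 10.9 CPM).

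In the opposite class, 8 genes are named for each way round, chosen for the smallest interaction p, so that how far their groups lay apart follows in part from the choice. Abcb1b, a multidrug efflux pump, had the smallest interaction p among those that rose in embryos and fell in yolk sacs. Embryo HO libraries held 13, 11.4, 10.1 and 11.2 CPM against 3.77 to 4.78 (median 4.09), and yolk sac HO libraries 9.73, 14.5, 17.4 and 15.1 against 18 to 30.1 (median 21.4). Its level thus rose in one tissue and fell in the other, with no overlap in either (1.46 ± 0.11 and -0.65 ± 0.11; interaction -2.11 ± 0.16, edgeR adjusted p = 2.01e-09). Bmp7, a signal of the BMP family, went to 46, 43, 42.7 and 44.5 CPM from 29.3 to 35.8 (median 31.2) in embryos and to 19.9, 25.7, 33.9 and 25.3 from 42.8 to 55.5 (median 50.4) in yolk sacs. Got1, the cytosolic aspartate aminotransferase, held 66.3, 57.1, 59.1 and 62.3 CPM against 49.1 to 52.9 (median 51.3) in embryos, and 76.8, 90.1, 111 and 78.8 against 146 to 172 (median 162) in yolk sacs. The differences were 0.48 ± 0.08 and -0.93 ± 0.08 for Bmp7 and 0.26 ± 0.07 and -0.84 ± 0.07 for Got1. Dusp5, a phosphatase that switches off ERK in the nucleus, had differences of 1.09 ± 0.12 and -1.11 ± 0.14. Ifnlr1, the receptor of interferon lambda, had 0.58 ± 0.13 and -1.42 ± 0.14, and Hs1bp3 had 0.65 ± 0.07 and -0.42 ± 0.07. Hacd4, an enzyme of very long fatty acid synthesis, had 0.29 ± 0.10 and -1.26 ± 0.11, with overlapping groups in embryos.

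Scube2, a secreted protein that releases Hedgehog ligands from cells, had the largest interaction of the 16. Embryo HO libraries held 2.48, 2.21, 3.59 and 5.04 CPM against 9.25 to 15.4 (median 12.3; -1.91 ± 0.26). Yolk sac HO libraries held 21.1, 20.7, 16.1 and 19.5 CPM against 1.52 to 4.9 (median 2.99; 2.72 ± 0.24). The tissue with the higher level was the embryo in WT and HE and the yolk sac in HO (interaction 4.63 ± 0.36, edgeR adjusted p = 3.88e-09). Zbtb46, a zinc finger factor of dendritic cells and endothelium, fell to 11.7, 11.3, 11.8 and 12.5 CPM from 19.9 to 25.9 (median 23) in embryos and rose to 29.7, 27.4, 25 and 33.7 from 15.3 to 21.7 (median 18.5) in yolk sacs. Prom1, a membrane protein of stem and epithelial cells, held 83.3, 70.1, 83.5 and 74.9 CPM against 91.1 to 113 (median 103) in embryos, and 33.5, 18.5, 20.9 and 31.8 against 6.96 to 13.8 (median 10.7) in yolk sacs. Neither gene's groups overlapped. Neto2, an auxiliary subunit of kainate receptors (-0.88 ± 0.11 and 0.66 ± 0.12), Dixdc1, a Wnt pathway protein (-0.79 ± 0.11 and 0.79 ± 0.14), and Tmem56 (-0.82 ± 0.21 and 1.73 ± 0.18) were apart in both tissues too. Psd3, an exchange factor of ARF GTPases, overlapped in embryos (-0.36 ± 0.10 and 1.40 ± 0.09), and Fgd4, an exchange factor of Cdc42, in yolk sacs (-0.76 ± 0.08 and 0.42 ± 0.08). Prom1 and Hacd4 left the opposite class when 3 libraries that stand apart were left out (embryo null HO replicate 2, embryo CD WT replicate 2 and yolk sac CD HE replicate 2). In the CD line alone Got1, Ifnlr1, Tmem56, Prom1 and Hacd4 were yolk sac only, and Pfkp was embryo only. Psd3 was yolk sac only in either line alone.

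**Figure D3:**
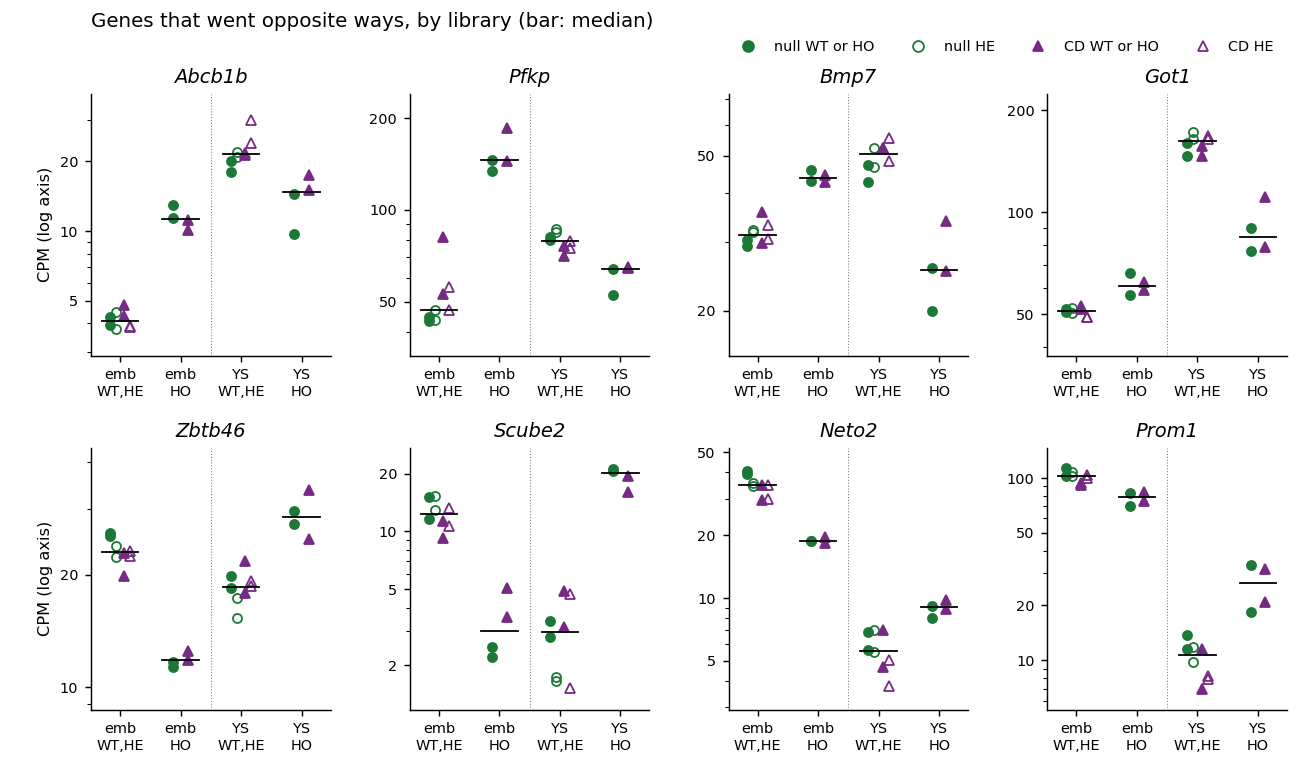
CPM (log axis) of 8 genes of the opposite class, with 1 point per library (circles null, triangles CD, open for HE), a bar at the median, and HO beside WT and HE in embryos (emb) and yolk sacs (YS). Abcb1b, Pfkp, Bmp7 and Got1 are higher in HO embryos and lower in HO yolk sacs, and Zbtb46, Scube2, Neto2 and Prom1 the reverse. These 8 were picked from the 16 named genes, and their lack of overlap follows in part from that choice. Hacd4, Psd3 and Fgd4, whose groups overlapped in 1 tissue, are not drawn.

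With the lines pooled, genes of primitive red cells and of haem synthesis were lower in HO embryos, while in HO yolk sacs more of them rose than fell. Of the 40 listed, all were tested and 30 were called higher in the yolk sac difference and 0 lower. That was 75% of them, against 31.9% of all genes. In embryos 31 fell and 1 rose, and in yolk sacs 14 rose and 1 fell. The median difference was -1.32 in embryos and 0.41 in yolk sacs, beside 0.00 and -0.02 over all genes. The class was embryo only for 19 members and opposite for 8, among them Klf1, Gata1, Nfe2, Epor, Ppox, Epb41 and Hemgn. In bulk tissue fewer cells of a type and less RNA per cell cannot be told apart. Reads of globin genes made up 0.00937% to 0.157% of counts in HO embryos against 0.111% to 0.362% in the others, and 1.15% to 1.93% in HO yolk sacs against 0.525% to 2.56%.

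Promoters are shown for the 3 members of smallest interaction p among called members with the motif searched. The GATA motif was searched because many red cell genes depend on GATA1 in textbook accounts of red cell formation. By that choice each promoter shown holds the motif (the letters GATA with A or T before them and A or G after them, on either strand, in capitals). Sequences are from RefSeq (GRCm38.p6), given in the direction of transcription. Klf1 (chr8:84901872-84901931, plus strand) is the erythroid Krüppel-like factor, Trim10 (chr17:36869381-36869440, plus strand) a ubiquitin ligase of red cell maturation, and Ermap (chr4:119190033-119190092, minus strand) a membrane protein of red cells.
Klf1: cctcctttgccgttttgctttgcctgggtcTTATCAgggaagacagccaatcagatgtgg
Trim10: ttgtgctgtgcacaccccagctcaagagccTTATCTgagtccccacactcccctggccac
Ermap: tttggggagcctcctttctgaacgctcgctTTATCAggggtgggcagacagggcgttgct
Such a motif lies in the 250 bases before the start of 29.7% of all 27025 genes with a promoter sequence, so a match is only a description of these letters. No share over the list is given, since only 29 of its 40 members had a sequence.

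Klf1 stood at 2.34, 0.419, 1.32 and 4.29 CPM in HO embryos and at 4.38 to 9.47 (median 6.56) in the others, with no overlap. In yolk sacs HO held 60.5, 39.4, 50.1 and 59.8 CPM against 17.6 to 69.5 (median 25.8), inside the range of the others. The difference was -1.73 ± 0.38 in embryos and 0.85 ± 0.29 in yolk sacs (interaction 2.58 ± 0.48, edgeR adjusted p = 0.000242). Trim10 (-2.04 ± 0.42 in embryos, 0.71 ± 0.30 in yolk sacs) was called in embryos only. The lowest embryo library was null HO replicate 2 for both genes, and without it the list gave 24 called interactions. With a term for sex in each tissue 21 were called, and 3 of the 8 opposite members were still opposite. The null line alone gave 35 and the CD line alone 0 in edgeR (12 at an unadjusted p below 0.05, and 1 in DESeq2), with a CD median interaction of 0.95. In that CD fit 14 members had an unadjusted edgeR p below 0.05 in embryos and 2 in yolk sacs. There 0 of the 8 opposite members stayed opposite. For no member was the difference between lines called. DESeq2 put 4 of the 8 opposite members in another class.

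Genes of the integrated stress response were mostly higher in HO embryos, while in HO yolk sacs more of them fell than rose. In this response kinases that sense lack of amino acids, haem or protein folding slow translation, and the factor ATF4 turns on amino acid transport, amino acid synthesis and tRNA charging. Of 40 members tested, 26 were called lower in the yolk sac difference and 0 higher (65% against 31.9% of all genes). In embryos 25 rose and 3 fell, and in yolk sacs 3 rose and 13 fell. The median difference was 0.30 in embryos and -0.18 in yolk sacs. Members of the opposite class were Eif4ebp1, Sars, Aars, Herpud1, Slc3a2, Slc7a1 and Trib3, and 13 members were embryo only. With library totals in place of TMM, 23 were lower and 1 higher, and Slc3a2 and Slc7a1 were no longer opposite. Slc7a1 also left the class in limma voom and with a sex term. In the CD line alone 8 were lower and 0 higher. There 2 of the 7 opposite members, Eif4ebp1 and Slc3a2, stayed opposite, and 5 of the 7 did in the null line alone.

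Promoters are shown for 3 members chosen in the same way, because ATF4 binds a composite C/EBP-ATF motif (TGATGNAA on either strand, in capitals) in textbook accounts of this response. Herpud1 (chr8:94386287-94386346, plus strand) acts in the breakdown of misfolded proteins, Pck2 (chr14:55540133-55540192, plus strand) is the mitochondrial phosphoenolpyruvate carboxykinase, and Aars (chr8:111033700-111033759, plus strand) charges alanine tRNA. Sequences are again from RefSeq (GRCm38.p6).
Herpud1: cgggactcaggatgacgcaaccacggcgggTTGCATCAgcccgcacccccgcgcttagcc
Pck2: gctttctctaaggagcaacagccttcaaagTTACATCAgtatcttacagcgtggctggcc
Aars: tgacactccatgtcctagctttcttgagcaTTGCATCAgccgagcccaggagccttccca
The motif lies before the start of 3.91% of all 27025 genes. Only 31 of the 40 members had a promoter sequence, so no share over the list is given.

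Eif4ebp1, an inhibitor of cap-dependent translation, held 89.1, 63.2, 84.5 and 80.2 CPM in HO embryos against 44.9 to 51.1 (median 47.1), and 33.2, 38.7, 43.9 and 30.2 in HO yolk sacs against 46 to 68.5 (median 54.2). The groups did not overlap in either tissue (0.74 ± 0.09 and -0.59 ± 0.10; interaction -1.33 ± 0.14, edgeR adjusted p = 2.13e-07). Trib3, a pseudokinase that restrains ATF4, was at 8.95, 5.07, 7.28 and 5.31 CPM against 1.58 to 4.82 (median 2.46) in embryos, and at 7.39, 6.81, 8.06 and 7.33 against 6.79 to 37.9 (median 20.7) in yolk sacs. It was apart in embryos and overlapped in yolk sacs, where the other libraries spread widely (1.39 ± 0.35 and -1.43 ± 0.36). Herpud1 differed by 0.31 ± 0.07 in embryos and -0.39 ± 0.07 in yolk sacs. Sars, which charges serine tRNA, differed by 0.26 ± 0.07 and -0.52 ± 0.07, and Aars by 0.14 ± 0.05 and -0.27 ± 0.05. Aars was yolk sac only without embryo CD WT replicate 2. Slc3a2 and Slc7a1, amino acid transporter genes, differed by 0.33 ± 0.06 and 0.67 ± 0.18 in embryos and by -0.20 ± 0.06 and -0.50 ± 0.19 in yolk sacs. Sesn2, a stress sensor on this list and on that of p53 targets, rose in both tissues, by 2.22 ± 0.10 in embryos and 0.31 ± 0.11 in yolk sacs.

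**Figure D4:**
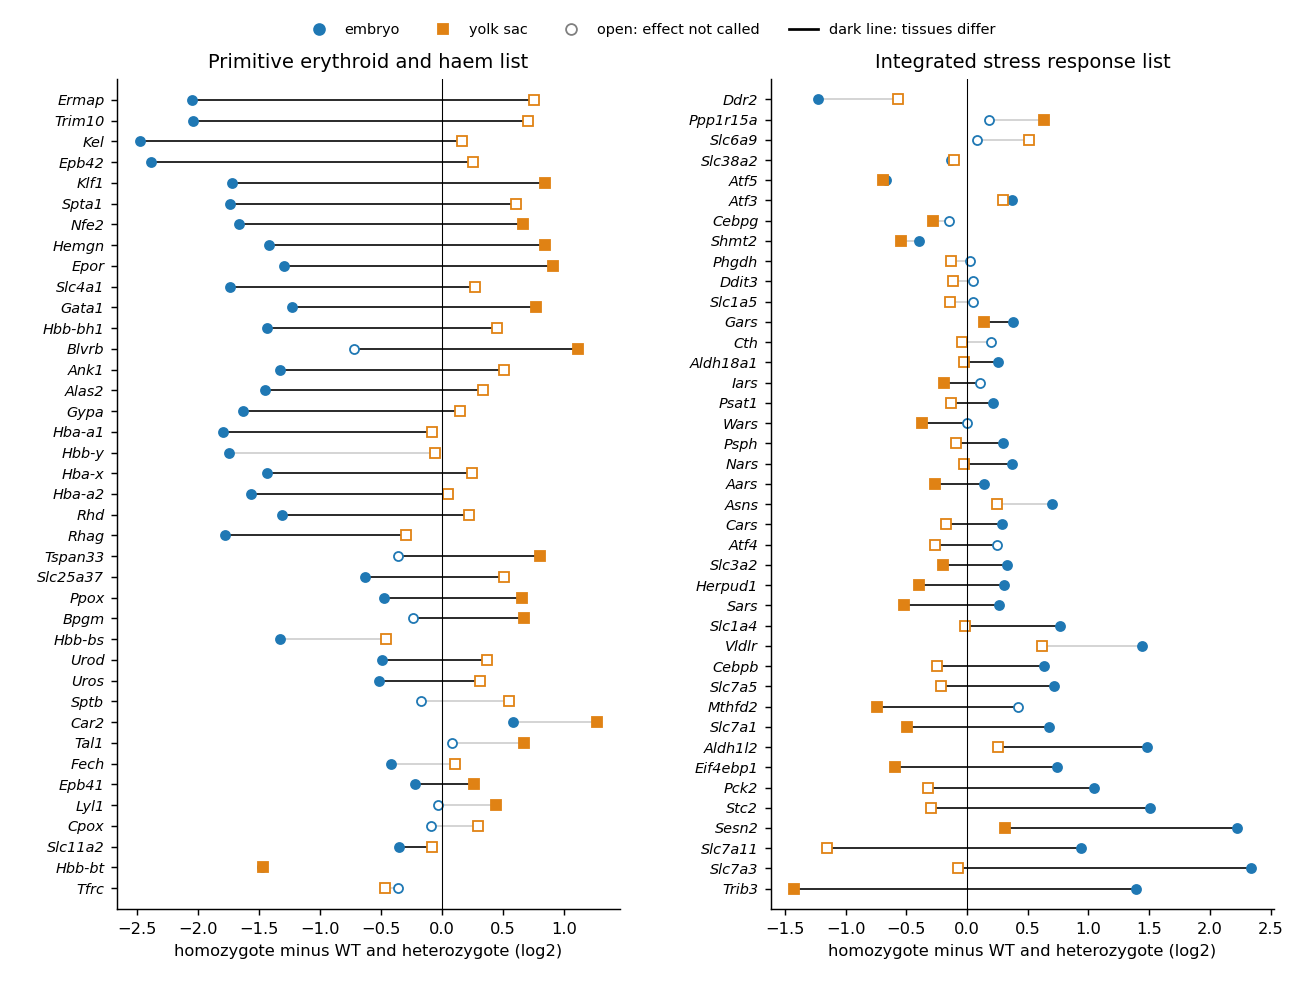
Homozygous difference (log2) in embryos and in yolk sacs for members of the erythroid and haem list and of the integrated stress response list, joined by a line, with filled points called in that tissue and dark lines called in the interaction (1 member of the first list is not drawn). Most erythroid members have the embryo point on the left (median -1.32 against 0.41), and most stress response members have it on the right (0.30 against -0.18).

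Genes of glycolysis and of the response to low oxygen rose in HO embryos more widely than in HO yolk sacs. The list of 40 symbols gave 41 genes tested (Aldoa under 2 identifiers), of which 21 were called lower and 1 higher in the yolk sac difference. That was 53.7% of them, against 31.9% of all genes. In embryos 32 rose and 1 fell, and in yolk sacs 11 rose and 7 fell, with medians of 0.43 and 0.01. Pfkp, the platelet form of phosphofructokinase, held 134, 146, 185 and 145 CPM in HO embryos against 43.3 to 81.4 (median 47), and 52.7, 64, 64.6 and 65.1 in HO yolk sacs against 70.6 to 86.4 (median 79.4). It was apart in both tissues, in opposite ways (1.56 ± 0.10 and -0.36 ± 0.10; interaction -1.92 ± 0.14, edgeR adjusted p = 2.01e-09). Pfkfb3, which makes the activator of phosphofructokinase, was opposite as well, at 0.64 ± 0.13 and -0.83 ± 0.15. So were Car12, a carbonic anhydrase (0.46 ± 0.13 and -0.47 ± 0.14), Egln1, an oxygen-sensing hydroxylase (0.39 ± 0.06 and -0.21 ± 0.07), and Pgk1, phosphoglycerate kinase (0.36 ± 0.07 and -0.21 ± 0.07). Egln1 and Pgk1 left the class with library totals in place of TMM and in limma voom, and Egln1 also with a sex term. Car12 left it in limma voom and in either line alone. In the CD line alone 0 of the 5 opposite members stayed opposite.

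Targets of the tumour suppressor p53 rose in both tissues, with 27 of 37 higher in embryos and 25 of 37 in yolk sacs (medians 0.63 and 0.48). The interaction was called lower in yolk sacs for 16 and higher for 3 (51.4% against 31.9% of all genes). Cdkn1a, the cell cycle inhibitor p21, was at 79.5, 43.6, 38.5 and 44.8 CPM in HO embryos against 7.16 to 8.41 (median 7.99), and at 39.5, 35.4, 26.3 and 33.9 in HO yolk sacs against 14.2 to 27.8 (median 16.1). It rose in both, with a larger difference in embryos (2.70 ± 0.15 and 0.96 ± 0.16). Tigar, a phosphatase that slows glycolysis, was called in yolk sacs only, where it fell (-1.14 ± 0.11, against 0.03 ± 0.10 in embryos). Fas, a death receptor, was the member of the opposite class (0.79 ± 0.30 and -1.24 ± 0.31), with overlapping groups in both tissues. It was yolk sac only without embryo null HO replicate 2, without embryo CD WT replicate 2, with a sex term and in the null line alone. In the CD line alone its interaction was not called.

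Genes of extraembryonic mesoderm, many of them collagen and contractile genes that the embryo expresses too, mostly rose in HO embryos, while in HO yolk sacs more fell than rose. Of 31 tested, 21 were called lower in the yolk sac difference and 1 higher (71% against 31.9% of all genes). In embryos 18 rose and 2 fell, and in yolk sacs 3 rose and 10 fell (medians 0.44 and -0.12). Col1a2, a chain of type I collagen, held 194, 301, 264 and 250 CPM in HO embryos against 130 to 218 (median 184), and 317, 351, 297 and 315 in HO yolk sacs against 461 to 1370 (median 751). The groups overlapped in embryos and were apart in yolk sacs (0.48 ± 0.16 and -1.27 ± 0.17). Col1a1, the other chain (0.33 ± 0.20 and -1.60 ± 0.22), and Col6a1, a chain of type VI collagen (-0.03 ± 0.18 and -1.88 ± 0.21), were called in yolk sacs only. The factor gene Foxf1 (0.81 ± 0.18 and -0.82 ± 0.19), the matrix gene Postn (0.61 ± 0.23 and -1.19 ± 0.24) and Anxa2, a membrane-binding protein (0.38 ± 0.09 and -0.24 ± 0.09), were opposite. The markers Hand1, Postn and Plac1 summed to 151 to 260 CPM in HO yolk sacs and 235 to 550 in the others. Most of that sum was Postn (93.4 to 155 against 168 to 427), while Plac1 was higher in HO (12.5 to 20 against 7 to 12.4), and their part in the result was not tested. Without embryo null HO replicate 2 the list gave 15 lower and 0 higher. Col1a2 and Postn left the opposite class without that library and also with a sex term. In the CD line alone 0 of the 4 opposite members stayed opposite. Anxa2 left the opposite class with library totals, in limma voom and with a sex term.

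Endothelial genes fell mainly in yolk sacs, where 22 of 43 fell and 3 rose, against 10 and 4 in embryos (medians -0.34 and -0.12). The interaction was called lower in yolk sacs for 15 and higher for 2 (39.5% against 31.9% of all genes). The arterial genes were the named ones. Gja5, the gap junction protein connexin 40 of arteries, held 1.38, 0.411, 0.403 and 0.262 CPM in HO yolk sacs against 20.1 to 58.1 (median 48.3), a difference of -6.11 ± 0.35. In HO embryos it held 2.62, 6.21, 4.53 and 4.64 CPM against 7.68 to 17.7 (median 15.7), a difference of -1.73 ± 0.24. It fell in both with no overlap, and further in yolk sacs (interaction -4.38 ± 0.43, edgeR adjusted p = 1.25e-07). Gja4, connexin 37, was called in yolk sacs only (-3.19 ± 0.29, against -0.33 ± 0.22 in embryos). Efnb2, the arterial ephrin ligand, was opposite: 134, 148, 142 and 141 CPM against 105 to 134 (median 116) in embryos, and 24.6, 17.8, 14.2 and 14.5 against 23.3 to 37.6 (median 31.8) in yolk sacs. Its groups met at the edge in both tissues. Kdr, the main VEGF receptor, was opposite too (0.35 ± 0.12 and -0.49 ± 0.12). Both left that class without embryo null HO replicate 2 and in the CD line alone, and Kdr also with a sex term. The markers Kdr, Cdh5 and Pecam1 summed to 295 to 379 CPM in HO yolk sacs and 336 to 494 in the others.

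Lysosomal and endocytic genes, which serve digestion in the visceral endoderm, were called lower in the yolk sac difference for 17 of 32 members and higher for 0. That was 53.1% of them, against 31.9% of all genes. In yolk sacs 18 fell and 4 rose, and in embryos 13 rose and 6 fell (medians -0.17 and 0.14). Hexa, a subunit of hexosaminidase, held 26.7, 26.1, 30.5 and 23.8 CPM in HO embryos against 19.5 to 23.7 (median 21.5), and 180, 155, 148 and 148 in HO yolk sacs against 198 to 261 (median 231). Its groups were apart in both tissues, in opposite ways (0.31 ± 0.07 and -0.54 ± 0.07). The protease gene Ctsl (0.46 ± 0.08 and -0.32 ± 0.09), the membrane protein gene Lamp2 (0.26 ± 0.06 and -0.31 ± 0.07) and the proton pump subunit gene Atp6v0d1 (0.23 ± 0.06 and -0.17 ± 0.05) were opposite as well. Atp6v0d1 left the class with library totals and with a sex term. Summed visceral endoderm markers lay at 15000 to 21400 CPM in HO yolk sacs and 19400 to 27100 in the others, and their part in the result was not tested.

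The visceral endoderm list itself gave 9 lower and 4 higher interactions of 38 (34.2% against 31.9% of all genes), while its median interaction was positive (0.24). That sign depended on the setting: the median was -0.21 without embryo CD WT replicate 2, in which the summed markers reached 335 CPM, -0.05 with a sex term, -0.59 in the null line alone and 0.88 in the CD line alone. Mttp, which loads lipid onto apolipoprotein B, was opposite, at 20.7, 21.4, 25.9 and 23.1 CPM in HO embryos against 10.9 to 28.2 (median 12.7) and at 456, 501, 560 and 475 in HO yolk sacs against 630 to 1010 (median 763). The groups overlapped in embryos through that library and were apart in yolk sacs (0.66 ± 0.15 and -0.62 ± 0.14). In the CD line alone the interaction of Mttp was not called. Lrp2, an endocytic receptor that neural and kidney epithelia also express, rose in embryos only (1.04 ± 0.12, against 0.15 ± 0.13). Trf, transferrin, fell in embryos only (-2.63 ± 0.41, against -0.20 ± 0.24), from 5.22 CPM at the median to between 0.522 and 1.78.

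Proliferation genes were called higher in the yolk sac difference for 19 of 36 members and lower for 0 (52.8% against 31.9% of all genes). In embryos 18 fell and 3 rose, and in yolk sacs 15 rose and 2 fell, with small medians (-0.13 and 0.08). Rrm2, a subunit of ribonucleotide reductase, held 340, 323, 337 and 344 CPM in HO embryos against 371 to 393 (median 388), and 325, 289, 337 and 315 in HO yolk sacs against 188 to 228 (median 208). It was apart in both tissues, in opposite ways (-0.20 ± 0.05 and 0.60 ± 0.04). Pcna, the polymerase clamp (-0.27 ± 0.05 and 0.28 ± 0.05), Rrm1, the large reductase subunit (-0.21 ± 0.04 and 0.13 ± 0.04), and Kif11, a spindle motor (-0.13 ± 0.04 and 0.16 ± 0.04), were opposite too. Rrm1 was embryo only in limma voom, with a sex term and in the null line alone. In the CD line alone 0 of these 4 opposite members stayed opposite. Cdc6, which loads the replicative helicase, rose in yolk sacs only (0.82 ± 0.05, against -0.07 ± 0.05). Pole, the catalytic subunit of polymerase epsilon, fell in both tissues, by 1.64 ± 0.05 on the log2 scale in embryos and by 0.58 ± 0.05 in yolk sacs.

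Of 45 neural genes listed, 20 passed the filter in both tissues. In embryos 3 of these rose and 11 fell, and in yolk sacs 8 rose and 2 fell, with 11 interactions higher and 3 lower. Genes near 0 in the other yolk sacs could pass the filter through the HO yolk sacs in which they were high, so these counts say nothing of the list as a whole. In limma voom with weights per tissue the higher interactions were 6 and the yolk sac rises 4. Crabp1, a retinoic acid binding protein, held 171, 103, 205 and 177 CPM in HO embryos against 199 to 277 (median 268), and 4.02, 2.17, 2.22 and 1.44 in HO yolk sacs against 0.106 to 1.5 (median 0.535). Its groups overlapped slightly in both tissues (-0.67 ± 0.15 and 2.02 ± 0.38). The related Crabp2, from the neural crest list, was opposite likewise (-1.47 ± 0.19 and 0.67 ± 0.20), as were Map2, Tubb3 and Lhx2. In limma voom Crabp1, Crabp2, Tubb3 and Lhx2 were embryo only, and Tubb3 was so without embryo null HO replicate 2 as well. In the CD line alone Crabp1 and Map2 were yolk sac only and Crabp2 embryo only. The interactions of Tubb3 and Lhx2 were not called there. Nes, an intermediate filament of neural progenitors, fell in embryos only (-1.18 ± 0.16, against 0.21 ± 0.16). Stmn2 of neurons went the other way: it was at 0, 0, 0 and 0.131 CPM in HO yolk sacs and 0.281 to 2.37 in the others, with no called difference in embryos (-0.03 ± 0.26).

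**Figure D5:**
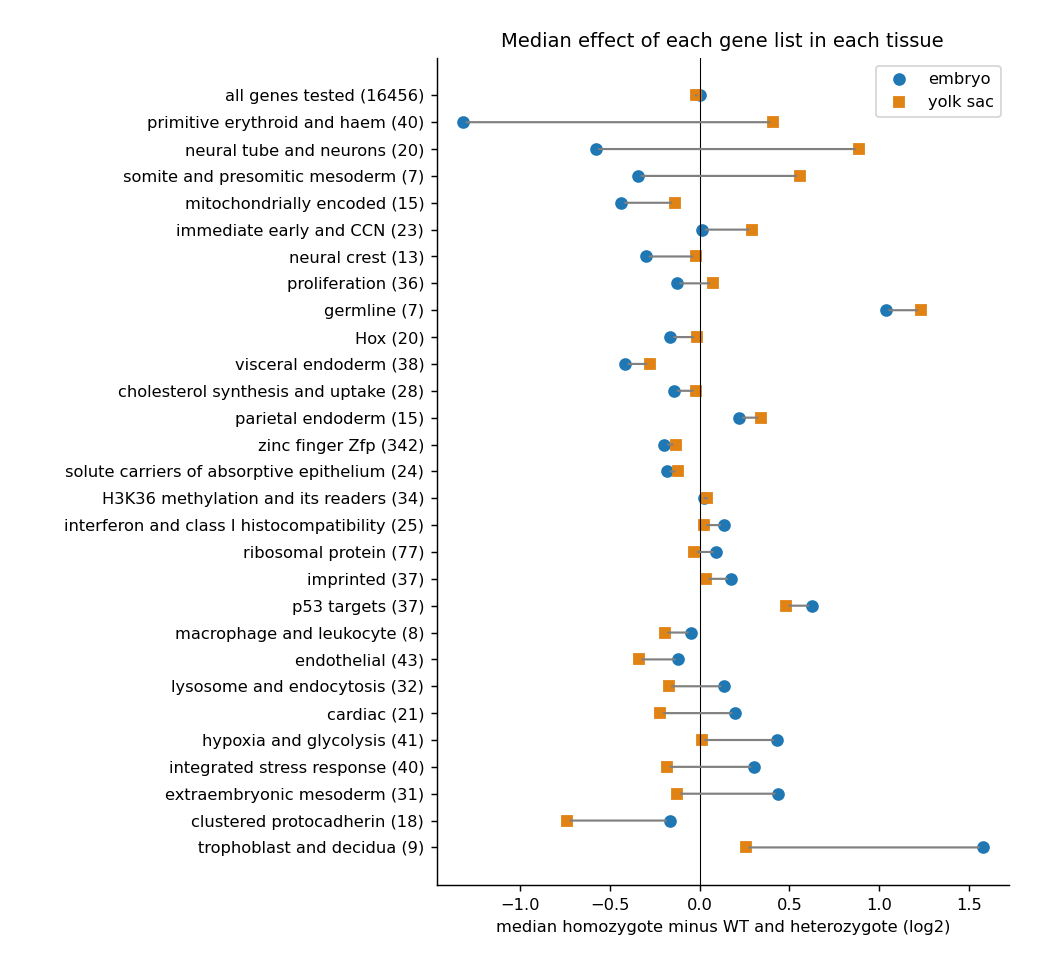
Median homozygous difference (log2) of each gene list in embryos and in yolk sacs, over the members tested in both tissues. The erythroid list has the embryo median at -1.32 and the yolk sac median at 0.41, and the hypoxia and glycolysis list at 0.43 and 0.01.

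Factors that write or read H3K36 methylation were called in both directions, 7 higher and 6 lower of 34 (38.2% against 31.9% of all genes). Nsd2, which places dimethylation on the same lysine, held 450, 439, 451 and 447 CPM in HO embryos against 495 to 522 (median 500), and 271, 279, 249 and 283 in HO yolk sacs against 225 to 252 (median 230). The embryo groups were apart and the yolk sac groups met at the edge (-0.18 ± 0.04 and 0.22 ± 0.04). The readers Mtf2 (-0.14 ± 0.05 and 0.28 ± 0.05), Zmynd11 (-0.15 ± 0.04 and 0.15 ± 0.04) and Msl3 (-0.32 ± 0.09 and 0.28 ± 0.09) were opposite as well, all by small amounts. In the null line alone Mtf2 was yolk sac only and Zmynd11 embryo only, while 2 of these 4 genes stayed opposite. In the CD line alone 0 of the 4 did. Msh6, a mismatch repair protein that binds the mark, rose in both tissues and further in yolk sacs (0.09 ± 0.04 and 0.43 ± 0.04). Supt6, a histone chaperone that travels with polymerase, rose in embryos only (0.29 ± 0.04, against -0.10 ± 0.04).

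Of 342 zinc finger genes named Zfp, 149 fell and 37 rose in embryos, and 105 fell and 44 rose in yolk sacs. Their interactions were called for 32.2%, near the 31.9% of all genes, with 78 higher and 32 lower (100 and 22 with library totals). Zfp850 went from 32.4 to 36.7 CPM (median 35.6) to 2.34, 1.52, 1.25 and 1.56 in HO embryos (-4.40 ± 0.13), and from 13.1 to 20.6 (median 16.2) to 3.97, 3.93, 5.54 and 4.26 in HO yolk sacs (-1.90 ± 0.12). It fell in both with no overlap, and further in embryos. Zfp873 (-3.54 ± 0.17 and -0.40 ± 0.14) and Zfp110 (-1.98 ± 0.07 and -0.50 ± 0.06) were of the same kind, as were Acap3, an ARF GTPase activator (-3.02 ± 0.12 and -0.79 ± 0.10), and Fam32a (-1.92 ± 0.08 and -0.35 ± 0.07). Members of this family share sequence, and reads split between copies could move their counts. Clustered protocadherins, the adhesion proteins of neurons, fell in yolk sacs for 12 of 18 and in embryos for 5. Their interactions were called lower for 7 and higher for 0 (38.9% against 31.9% of all genes). The count of 7 was 4 without embryo null HO replicate 2 or without yolk sac null HO replicate 1. Pcdhgb2 differed by -0.66 ± 0.18 in embryos and -1.89 ± 0.23 in yolk sacs. These genes overlap on the chromosome, so reads cannot be placed to 1 of them with certainty. On the rising side, Tspoap1 rose in both tissues and further in yolk sacs, where HO held 30.3, 20.8, 18.9 and 23.4 CPM against 2.42 to 4.16 (median 3.5; 2.80 ± 0.15), and Ifi30, a lysosomal reductase, fell further there (-0.39 ± 0.11 and -1.59 ± 0.09).

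Imprinted genes, expressed from 1 parental copy, gave 14 lower and 3 higher interactions of 37 (45.9% against 31.9% of all genes). Slc38a4, an amino acid transporter (0.37 ± 0.09 and -0.57 ± 0.10), and Meg3, a noncoding RNA (0.35 ± 0.09 and -0.31 ± 0.09), were opposite, as were Impact, Cd81 and Sgce, which left the class with library totals. With a sex term Meg3 was embryo only. Of the 5 opposite imprinted genes, 2 stayed opposite in the null line alone and 0 in the CD line alone. Grb10, an adaptor that restrains growth, rose in yolk sacs only, to 643, 669, 601 and 706 CPM from 368 to 556 (median 395). In embryos it stood at 1820, 1810, 1820 and 1740 CPM against 1780 to 1920 (median 1830), within the range of the others but for 1 library. Ccn1, a matrix protein and a target of the YAP pathway, rose in both tissues and further in yolk sacs (0.38 ± 0.11 and 1.17 ± 0.11), and Ccn2, of the same family, in yolk sacs only (0.86 ± 0.16, against -0.16 ± 0.16). Ribosomal protein genes gave 18 lower and 1 higher interactions of 77 with TMM but 2 and 2 with library totals, so no direction is given. With TMM that was 24.7% of them, against 31.9% of all genes. Mitochondrially encoded transcripts gave 6 higher and 0 lower of 15 (40% against 31.9% of all genes). Of these transcripts 10 fell in embryos and 3 in yolk sacs. For example, mt-Co1 differed by -0.39 ± 0.06 in embryos and -0.05 ± 0.06 in yolk sacs.

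Among blood and tissue cells outside the main layers, Csf1r, the receptor of macrophage growth factor, rose in yolk sacs only, to 25.6, 17.2, 9.31 and 29.5 CPM from 8.76 to 13.4 (median 10.6; 0.93 ± 0.23). The groups overlapped, and the other macrophage markers lay lower in HO yolk sacs, Ptprc at a median of 1.05 CPM against 3.32 and Cx3cr1 at 0.0621 against 0.544. Of 8 macrophage and leukocyte genes tested, 2 rose and 3 fell in yolk sacs. Lcp1, an actin bundler that leukocytes and yolk sac endoderm express, fell there only (-0.94 ± 0.08, against -0.05 ± 0.08). Pth1r, a hormone receptor of parietal endoderm, was opposite (-0.44 ± 0.13 and 0.93 ± 0.12), and left that class in the CD line alone. The parietal endoderm markers Lama1, Thbd and Stra6 summed to 238 to 670 CPM in HO yolk sacs against 149 to 204, and nearly all of that sum was Lama1, a laminin chain of basement membranes (227 to 648 against 135 to 186). Thbd was lower there (median 9.59 against 15), and Stra6 stayed near 1 CPM (medians 1.44 and 0.458), so the sum does not stand for the cell type. The part of these cells in the result was not tested. Heart markers summed to 208 to 312 CPM in HO embryos against 169 to 245. Of 21 cardiac genes 10 rose in embryos, and 3 did without embryo null HO replicate 2. Somite markers summed to 8.77 to 27.6 CPM in HO embryos against 61.7 to 95.6.

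Interferon and antigen presentation genes gave 7 lower and 1 higher interactions of 25, 32% against 31.9% of all genes. Bst2, a tether of budding viruses (0.63 ± 0.17 in embryos and -0.64 ± 0.13 in yolk sacs), and Ddx58, the RNA sensor RIG-I (0.52 ± 0.15 and -0.50 ± 0.13), were opposite. Cholesterol synthesis genes gave 8 higher and 0 lower of 28, 28.6% against 31.9% of all genes. The count of 8 was 5 without embryo null HO replicate 1 and 13 without embryo null HO replicate 2. The isomerase gene Idi1 was among the 8 and was opposite (-0.27 ± 0.10 and 0.40 ± 0.10). Immediate early genes gave 7 higher and 3 lower of 23 (43.5% against 31.9% of all genes). Jund, a subunit of the AP-1 factor, was opposite (-0.55 ± 0.13 and 0.41 ± 0.13). Carriers of absorptive epithelium gave 3 higher and 5 lower of 24, 33.3% against 31.9% of all genes (3 and 8 in the null line alone, 4 and 8 without embryo CD WT replicate 2). The fatty acid transporter gene Slc27a4 fell in embryos and rose in yolk sacs (-0.47 ± 0.10 and 0.52 ± 0.09), and the amino acid transporter gene Slc7a7 did the reverse (0.49 ± 0.16 and -0.67 ± 0.13). Hsd11b2, which inactivates glucocorticoids, was opposite among trophoblast genes (0.41 ± 0.13 and -0.95 ± 0.13), and Cd44, a hyaluronan receptor, among leukocyte genes (0.81 ± 0.11 and -0.49 ± 0.12). Without embryo null HO replicate 2, in which the trophoblast markers summed to 15.4 CPM, Hsd11b2, Slc7a7 and Ddx58 were yolk sac only. Idi1 and Jund left the opposite class in limma voom, with a sex term and in either line alone. Bst2 left it in either line alone, and Cd44 in the null line alone. Slc27a4, Slc7a7, Hsd11b2 and Ddx58 left it in the CD line alone. Of 20 Hox genes 4 were called higher and 2 lower, 30% against 31.9% of all genes. Hoxc8, which patterns the trunk, fell in yolk sacs only, to 11.6, 16.5, 18.8 and 13.8 CPM from 21.8 to 48.6 (median 32.9), with no overlap. Twist1, a factor of mesenchyme and neural crest, fell in both tissues and further in embryos (-1.26 ± 0.14 and -0.48 ± 0.17).

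The interaction was also taken within each line, since the lines share no libraries. In a fit over all libraries it was called for 3634 genes in the null line and 1781 in the CD line. Of the 1291 called in both, 1290 had the same sign. The difference between the lines was called for 2 genes, with 1066 at an unadjusted p below 0.05. When each line was fitted on its own libraries, 4114 of 15145 genes were called in the null line and 880 in the CD line, and 95.3% of the former and 99.7% of the latter had the same sign in the other line, against 75.5% of all genes. Of the 861 opposite genes, 494 stayed opposite in the null line alone and 51 in the CD line alone. Their interaction was still called for 814 and 344. Among the opposite genes named above, the interaction of Abcb1b was -2.31 in the null and -1.91 in the CD line, that of Pfkp -2.16 and -1.69, and that of Scube2 5.68 and 3.69. Vegfc gave -2.30 and -2.49, and Gja5 -3.96 and -5.06.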

How the data were processed

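Messenger RNA of 12 embryo and 12 yolk sac libraries was sequenced. Per the submitters' processing notes, the tools were fastp 0.22.0, HISAT2 2.2.1, featureCounts 2.0.1 and DESeq2 1.32.0, with mm10. Neither annotation release nor strand setting is given in these sources. The authors deposited raw read counts per gene, 1 table per tissue, with FPKM values that were not used. Totals were 23414255 to 27674831 counts in embryo and 16400137 to 22113787 in yolk sac libraries.

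The tables were joined by gene identifier. Genes passing filterByExpr (minimum count 10, minimum total 15) in each tissue were fitted in edgeR 4.0.16 (R 4.3.3; TMM, quasi-likelihood F-test, Benjamini-Hochberg, threshold 0.05) with 4 tissue-by-line levels and HO in each tissue (18 residual degrees of freedom). The fit was tested on simulated data. Positions are from GENCODE for mm10. Replicates differed by more than sampling noise (chi-square per degree of freedom 3.09 to 33.4).

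Genes are named by smallest interaction p among called genes (up to 6 per one-tissue direction, 8 per opposite direction). Their interaction had to reach a size of 1 on the log2 scale, and their mean level had to reach 2 CPM in both tissues. For the one-tissue classes, HO libraries also had to stand apart from the others of their line. For the opposite class this was not required, and groups may overlap. Up to 3 called genes moving the same way are named for each tissue with the larger difference, and up to 3 members per list. Members of the opposite class on any list (74 genes) were chosen after their values were seen. Members and lists were chosen with earlier results of these data known. Alternatives were other scalings and filters, DESeq2 1.42.0, limma 3.58.1 voom, other controls, 1 line alone, terms for sex or replicate number, and leaving out libraries. The labels do not say whether a replicate number joins an embryo and a yolk sac of the same conceptus. Deviations of same-numbered samples correlated at -0.0501 to 0.123 between tissues. A low correlation between different tissues cannot show that samples were not paired. In CD WT and CD HO the embryo and yolk sac libraries differed in the presence of Y-linked transcripts, so there the numbers did not pair them. Some genes that the rules would name are not reported here.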

Additional observations from a re-analysis of the deposited data

Results flagged for a closer look

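The test of the homozygous difference between tissues called 5255 genes. The same difference set between the lines called 2 genes: Rpl34-ps1, a pseudogene, with an interaction of -0.01 in the null line and -3.26 in the CD line, and Hs3st1, a heparan sulfate sulfotransferase, with 3.01 and -0.83 (edgeR adjusted p = 0.0220).

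Single libraries stood far from the rest of their group in 26 of 216 groups of 4 or 8 libraries examined by Dixon's ratio, and chance gives about 1 in 20. Embryo CD WT replicate 2 accounted for 10. It was highest of its group for visceral endoderm markers (335 CPM), heart markers (245), Trim25 (18.2), Slc35f2 (14.2), Scly (16), Pfkp (81.4), Dusp5 (24.7) and Hs1bp3 (20.9), and lowest for somite markers (61.7) and Rab3il1 (18.7). In embryo null HO replicate 1 visceral endoderm markers were high (26.9 CPM) and Kif5c was low (46.3). In embryo null HO replicate 2 trophoblast markers were high (15.4 CPM) and Hs1bp3 was low (24.4). Embryo CD HO replicate 1 had the highest Ifnlr1 (5.64 CPM), and embryo CD HE replicate 2 the highest total count (27674831).

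Among yolk sacs, CD HO replicate 1 was high for trophoblast markers (74.1 CPM) and low for Fgd4 (42.7). CD HO replicate 2 was high for Car13 (12.8 CPM) and low for Cavin2 (7.33). Null HO replicate 1 was low for Sgpp2 (43.8 CPM) and Pfkp (52.7). CD WT replicate 2 was low for parietal endoderm markers (149 CPM) and Ap4m1 (8.54) and high for Rab3il1 (165), and CD HE replicate 2 was low for Nup62cl (53.3).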

How the results depend on the processing

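With WT alone as controls, the interaction was called for 2988 genes, the embryo difference for 4032, and the embryo-only, yolk-sac-only and opposite classes held 995, 1351 and 316. With the CD line alone the interaction was called for 889 genes, the embryo difference for 1436, the yolk sac difference for 2480, and the classes held 242, 490 and 53. All other alternatives tried left these counts within 1.5 times of those reported, and leaving out 1 library gave 4679 to 5564 interactions. None of the named genes reversed, while 76 gene-by-setting values lost their call. With a replicate block within each tissue there were 5259 interactions, 6240 embryo and 6643 yolk sac calls and classes of 1702, 2048 and 875. A replicate block over embryo and yolk sac of 1 number gave 4636 interactions. The cause of these changes was not tested. Depth limits genes near 1 CPM in yolk sacs, such as the neural ones.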
